A study of Mus musculus with 15 samples.

Results

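The 10 genes described here are 5 heat shock genes (Hspa1a, Hspa1b, Dnajb1, Hsph1 and Hspb1) and 5 immediate-early genes (Jun, Junb, Fosb, Ier2 and Ier3) whose transcripts are widely read as a measure of the stress of cell isolation. They were picked by name out of 56953 mouse genes and found through their Ensembl identifiers, and all 10 were among the 17975 genes with enough counts to be tested. Messenger RNA of primary mouse hepatocytes was sequenced in 15 libraries, 4 from ΔEGFR transgenic mice given carbon tetrachloride (CCl4), 4 from ΔEGFR mice given mineral oil, 3 from wild-type (WT) mice given CCl4 and 4 from WT mice given mineral oil. CCl4 is a liver toxin and mineral oil is its usual carrier. As background, ΔEGFR names a truncated epidermal growth factor receptor without kinase activity that is used to block receptor signalling. The promoter of the transgene, the strain, age and sex of the mice, the dose and length of treatment and the way the cells were isolated are not given in the sources used here.

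When proteins unfold in a cell, heat shock factor 1 (HSF1) forms trimers, binds heat shock elements in promoters and turns on chaperone genes. Immediate-early genes are transcribed within minutes of a stimulus without new protein synthesis, and many encode subunits of the transcription factor AP-1. In liver, immediate-early genes are known to be induced by injury, by partial hepatectomy and by the collagenase digestion used to free hepatocytes. Isolation of cells is also known to raise heat shock transcripts, so their level in a hepatocyte library can carry the history of the preparation as well as the state of the animal.

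Total counts ran from 51.7 to 61.9 M (megacounts) in 6 libraries and from 96.2 to 155.4 M in 9, and the 2 depth classes were not spread evenly over the groups. Levels are given in TPM (RSEM's transcript level, scaled for gene length and library). Of 10 hepatocyte markers, Alb among them, 10 were above 1 TPM in every library. One library, WT mineral oil replicate 1, stood apart from the other 3 of its group before any member is considered. It held 136 M counts, against 56.9 to 61.9 M for the other 3, and 11.8% of its counts were mitochondrial, against 3.31 to 3.51%. Its 8 neutrophil markers summed to 5363 TPM, against 5.62 to 76.1 TPM, with Camp at 0 in WT mineral oil replicate 3. Members' results that involve WT mineral oil are therefore given with and without replicate 1. ΔEGFR mineral oil replicate 1 had a higher mitochondrial share still, 16.9% of counts, against 2.17 to 4.64% in the other 3 of its group, while its depth, 131 M, was near theirs. Egfr, the mouse gene of the receptor, measured 38.9 to 85.9 TPM in ΔEGFR CCl4, 168 to 299 TPM in ΔEGFR mineral oil, 67.6 to 141 TPM in WT CCl4 and 189 to 317 TPM in WT mineral oil, and whether reads of the transgene fall on it is not known, so it checks no label.

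The promoters of the 5 heat shock genes are shown because all pairs among 4 of these genes passed a test of correlation over the libraries and no pair with the fifth, Hspb1, did. Each window runs 5′ to 3′ on the strand of the gene in the RefSeq GRCm38.p6 table, 250 bases before the start site and 50 from it, and capitals mark heat shock elements searched as the letters GAANNTTC or TTCNNGAA on both strands, with overlapping matches joined. Hspa1a lies on the minus strand at chr17:34972107-34972406, Hspa1b on the minus strand at chr17:34959189-34959488, and Dnajb1 on the plus strand at chr8:83607925-83608224. Hsph1 lies on the minus strand at chr5:149636266-149636565 and Hspb1 on the plus strand at chr5:135887669-135887968. For Dnajb1 and Hsph1, which have 2 start sites each in the table, 1 window is shown.
Hspa1a: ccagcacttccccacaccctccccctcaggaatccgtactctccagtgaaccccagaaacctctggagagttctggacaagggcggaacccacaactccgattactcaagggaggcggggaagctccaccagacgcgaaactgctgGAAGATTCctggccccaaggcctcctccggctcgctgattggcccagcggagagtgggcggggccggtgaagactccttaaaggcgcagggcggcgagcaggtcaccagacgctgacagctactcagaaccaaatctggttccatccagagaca
Hspa1b: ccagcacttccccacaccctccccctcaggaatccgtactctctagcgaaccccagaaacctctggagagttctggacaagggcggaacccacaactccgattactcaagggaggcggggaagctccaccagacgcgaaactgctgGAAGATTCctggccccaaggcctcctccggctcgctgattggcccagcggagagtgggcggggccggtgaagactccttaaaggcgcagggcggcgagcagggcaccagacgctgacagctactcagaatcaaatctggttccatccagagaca
Dnajb1: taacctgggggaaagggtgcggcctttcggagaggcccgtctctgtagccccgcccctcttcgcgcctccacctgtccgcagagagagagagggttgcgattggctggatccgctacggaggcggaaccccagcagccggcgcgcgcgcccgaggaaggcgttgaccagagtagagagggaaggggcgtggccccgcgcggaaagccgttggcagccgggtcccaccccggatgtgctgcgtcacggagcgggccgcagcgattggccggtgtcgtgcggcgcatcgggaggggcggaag
Hsph1: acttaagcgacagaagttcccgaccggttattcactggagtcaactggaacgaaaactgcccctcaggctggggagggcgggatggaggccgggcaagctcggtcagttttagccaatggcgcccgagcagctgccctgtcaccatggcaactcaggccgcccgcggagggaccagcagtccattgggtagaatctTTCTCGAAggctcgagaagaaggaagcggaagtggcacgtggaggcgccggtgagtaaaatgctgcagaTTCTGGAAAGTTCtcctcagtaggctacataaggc
Hspb1: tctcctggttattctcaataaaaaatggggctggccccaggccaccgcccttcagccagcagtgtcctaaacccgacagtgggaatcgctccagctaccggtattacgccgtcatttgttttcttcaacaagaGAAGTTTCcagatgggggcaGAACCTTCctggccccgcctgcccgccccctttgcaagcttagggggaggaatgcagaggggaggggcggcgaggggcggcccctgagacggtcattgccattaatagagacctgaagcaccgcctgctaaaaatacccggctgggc
The Hspa1a and Hspa1b windows shared 296 of 300 bases (98.7%), and in both the element began 104 bases before the start site. Hspb1 held 2 elements, which began 117 and 97 bases before its start site. Hsph1 held 1 element that began 54 bases before its start site and a longer element of 3 units (letters GAANNTTCNNGAA or TTCNNGAANNTTC) that began at base 16 of the transcript. Of 32851 promoters in the table, 15.1% held an element of 2 units and 0.603% one of 3 units. The Dnajb1 windows held neither, which says only that these letters are not in these 300 bases. Among the immediate-early genes the table held windows for Jun, Junb, Fosb and Ier3. Jun held 1 element of 2 units, which began 128 bases before the start site. None of these 4 windows held the AP-1 site TGANTCA (7.81% of all promoters), the cAMP response element TGACGTCA (1.79%) or the CArG box of the serum response element (1.63%).

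Hspa1b and Hspa1a encode the stress-inducible cytosolic HSP70, and their near-identical transcripts limit how far they can be told apart. Of all stretches of 100 bases, 47.1% in the Hspa1a transcript and 49.9% in the Hspa1b transcript also occurred in the other one, in GENCODE M21, so the split of reads between them is uncertain. Hspa1b had 124, 83.3, 22.1 and 42.6 TPM in ΔEGFR CCl4, against 18.4, 19.0, 142 and 80.9 TPM in ΔEGFR mineral oil. The WT libraries had 58.0, 28.04 and 51.9 TPM with CCl4, against 487, 12.4, 18.9 and 28.9 TPM with mineral oil. The highest level was that of WT mineral oil replicate 1, 3.43 times that of the next library, ΔEGFR mineral oil replicate 3, and the groups overlapped in every comparison. Hspa1a had 13.7, 12.3, 3.22 and 11.1 TPM in ΔEGFR CCl4, against 0.94, 1.14, 10.7 and 4.49 TPM in ΔEGFR mineral oil. In WT it had 14.01, 3.98 and 21.1 TPM with CCl4, against 135, 0.67, 0.66 and 1.98 TPM with mineral oil. Again the highest was WT mineral oil replicate 1, 6.38 times the next library, and the other 3 WT mineral oil libraries lay below every CCl4 library.

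Dnajb1 encodes an HSP40 co-chaperone that hands unfolded proteins to HSP70. Dnajb1 had 39.7, 24.8, 12.0 and 22.5 TPM in ΔEGFR CCl4, against 9.92, 14.4, 30.3 and 24.9 TPM in ΔEGFR mineral oil. Levels in WT were 26.0, 16.9 and 32.9 TPM with CCl4, against 344, 10.6, 13.4 and 12.6 TPM with mineral oil. The 14 libraries other than WT mineral oil replicate 1 lay between 9.92 and 39.7 TPM, and that library was 8.64 times the next one. Hsph1 encodes HSP110, a nucleotide exchange factor of HSP70. Hsph1 had 148, 82.7, 28.4 and 51.9 TPM in ΔEGFR CCl4, against 21.9, 23.2, 84.1 and 60.7 TPM in ΔEGFR mineral oil. WT mice gave 56.3, 51.0 and 81.0 TPM with CCl4, against 189, 34.8, 40.6 and 27.6 TPM with mineral oil. The highest was once more WT mineral oil replicate 1, but only 1.27 times ΔEGFR CCl4 replicate 1, and all 4 groups overlapped.

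Hspb1 encodes the small heat shock protein HSP27 (HSP25 in mouse), which holds unfolded proteins without ATP. Hspb1 had 497, 204, 94.6 and 13.4 TPM in ΔEGFR CCl4, against 28.5, 53.3, 96.0 and 52.6 TPM in ΔEGFR mineral oil. The WT libraries gave 120.2, 93.8 and 652 TPM with CCl4, against 90.5, 36.9, 23.7 and 36.7 TPM with mineral oil. The highest levels were in 2 CCl4 libraries, WT CCl4 replicate 3 and ΔEGFR CCl4 replicate 1, and the lowest was in another, ΔEGFR CCl4 replicate 4. WT mineral oil replicate 1 was the highest of its group but below all 3 WT CCl4 libraries.

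**Figure D1:**
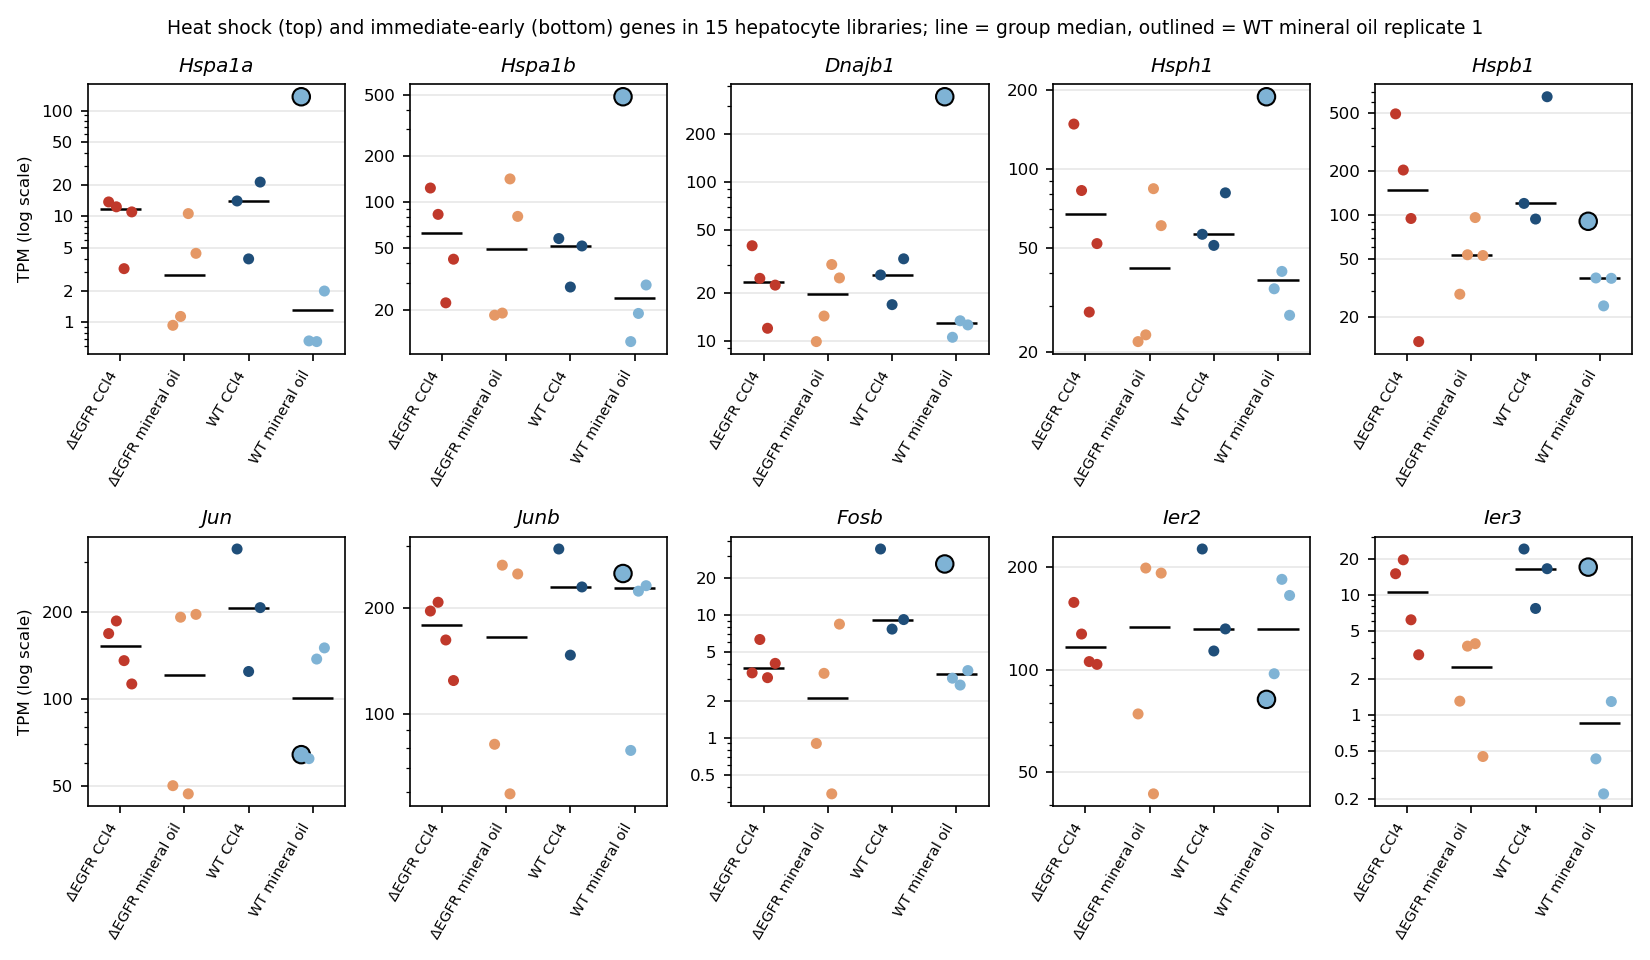
TPM (log scale) of each heat shock gene (top row) and immediate-early gene (bottom row) in the 4 groups, with a point per library, a line at the group median and WT mineral oil replicate 1 outlined. The outlined library is the highest of all 15 for Hspa1a, Hspa1b, Dnajb1 and Hsph1, at 135, 487, 344 and 189 TPM, but not for Hspb1, Jun, Junb, Fosb, Ier2 or Ier3.

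The comparison of CCl4 with mineral oil in WT mice asks whether these stress transcripts differ in hepatocytes of toxin-treated animals. It called none of the 5 heat shock genes with edgeR. All log2 fold changes below are from the fit of all 15 libraries, with their standard errors and Benjamini-Hochberg adjusted p-values over all genes tested. Of all genes, 2250 (12.5%) were called, so 0 of 10 members stands against 12.5%. At an unadjusted p under 0.05, 2 of the 10 members (Dnajb1 and Hspb1) and 5187 of all genes (28.9%) passed. DESeq2 called 0 of the 10 members, but it gave no adjusted p-value for Hspa1a or Dnajb1 and so could not call them. On the CPM scale (counts scaled to library size) the libraries of the 2 groups overlapped for 10 of 10 members, Hspb1 narrowly so though not in TPM, whereas 24.1% of all genes did not overlap. Hspb1 had a log2 fold change of 1.99 ± 0.85 (adjusted p = 0.14 with edgeR). Dnajb1 had −2.38 ± 1.08 (adjusted p = 0.163), Hspa1b −2.02 ± 1.17 (adjusted p = 0.275), Hspa1a −1.90 ± 1.56 (adjusted p = 0.449) and Hsph1 −0.66 ± 0.64 (adjusted p = 0.53), all with edgeR.

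Those 4 negative values rest on WT mineral oil replicate 1. Without it the log2 fold change of Hspa1a was 3.03 ± 0.87 (adjusted p = 0.0237 with edgeR), an 8.17-fold higher level with CCl4, and the gene passed the test. Hspa1b had 0.70 ± 0.69, Dnajb1 0.50 ± 0.37 and Hsph1 0.28 ± 0.49, with adjusted p-values of 0.461, 0.322 and 0.69 from edgeR. Hspb1 had 2.49 ± 0.93 (adjusted p = 0.0631 with edgeR), and 0.84 where WT CCl4 replicate 3, its highest library, was left out in its place. The share of all genes called was 28.7% in the fit without WT mineral oil replicate 1. With replicate 1 left out the 3 remaining WT mineral oil libraries were all under 80 M counts. In a fit with depth class as a covariate and all libraries, Hspa1a had 0.57 (adjusted p = 0.804 with edgeR).

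In ΔEGFR mice, which raise the same question in the transgenic background, 0 of 10 members were called with CCl4 by edgeR, against 746 of all genes (4.15%). None passed at an unadjusted p under 0.05, where 4447 genes (24.7%) did. DESeq2 called none of the 10, but gave no adjusted p-value for Hspa1a. The log2 fold change of Hspb1 was 1.26 ± 0.79 (adjusted p = 0.339 with edgeR) and 0.27 without ΔEGFR CCl4 replicate 1. That of Hspa1a was 0.81 ± 1.37, that of Hspa1b was −0.43 ± 1.01, and those of Dnajb1 and Hsph1 were −0.20 ± 0.92 and 0.13 ± 0.58. Without ΔEGFR mineral oil replicate 1, the library with the highest mitochondrial share, the 5 values were 1.12 for Hspb1, 0.52 for Hspa1a, −0.69 for Hspa1b, −0.34 for Dnajb1 and −0.04 for Hsph1, 0 of 10 members were called and 289 genes were. ΔEGFR CCl4 and ΔEGFR mineral oil libraries overlapped in CPM for 10 of 10 members, whereas 21.6% of all genes did not overlap. The summed level of other-cell markers, most of it from macrophage markers in the CCl4 libraries, was higher in every CCl4 library than in every mineral oil library but WT mineral oil replicate 1. The 73 markers of macrophages, stellate, endothelial, bile duct and blood cells summed to 4158 to 11520 TPM in ΔEGFR CCl4, against 135.3 to 1887 TPM in ΔEGFR mineral oil. In WT they summed to 4214 to 13070 TPM with CCl4, against 188.7 to 8249 TPM with mineral oil, where replicate 1 was the highest. Single lists overlapped more: neutrophil markers summed to 87.4 to 615 TPM in ΔEGFR CCl4, against 5.07 to 297 TPM in ΔEGFR mineral oil, and T and NK cell markers to 4.21 TPM in WT CCl4 replicate 1, against 7.27 TPM in WT mineral oil replicate 4. Of the 16 macrophage markers, 2 rose with CCl4 in ΔEGFR and 4 in WT (9 in WT without mineral oil replicate 1), and all 16 had positive values in both, whereas the stellate marker Acta2 and the bile duct marker Krt19 were at 0 in WT mineral oil replicate 2. The part of these cells in the members' values was not tested beyond the covariate fits given with the genes concerned. Hepatocyte and other cells cannot be told apart as sources of a transcript in such bulk libraries, nor can fewer cells of a type and less RNA per cell.

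The comparison of ΔEGFR with WT in mineral oil called 0 of 10 members, against 0 of all genes (0%), with edgeR. At an unadjusted p under 0.05, 1 member (Dnajb1) and 1197 genes (6.66%) passed. DESeq2 called 0 members and 0 genes, but gave no adjusted p-value for Hspa1a or Dnajb1. The genotypes overlapped in CPM for 10 of 10 members, and 2.73% of all genes did not overlap. Hspa1a had a log2 fold change of −3.04 ± 1.46 and Dnajb1 −2.20 ± 0.96 (adjusted p = 0.713 for each, with edgeR). Without WT mineral oil replicate 1 they were 1.89 ± 0.80 and 0.68 ± 0.35 (adjusted p = 0.822 for each). With only libraries over 80 M, where that library stands alone for WT mineral oil and is assumed to vary like the others, they were −4.95 (adjusted p = 0.045) and −4.0 (adjusted p = 0.02), and 365 genes were called with edgeR. With the mean of the other-cell markers as a covariate, Hspa1a had 0.27 (adjusted p = 0.963). Hspa1b had −1.08 ± 1.02 with all libraries and 1.64 ± 0.67 without WT mineral oil replicate 1 (adjusted p = 0.779 and 0.822 with edgeR). In the same 2 fits Hsph1 had −0.56 ± 0.58 and 0.38 ± 0.46, and Hspb1 0.28 ± 0.78 and 0.77 ± 0.84.

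Under CCl4, 0 of 10 members and 0 of all genes (0%) differed between ΔEGFR and WT with edgeR. No member passed at an unadjusted p under 0.05, where 411 genes (2.29%) did, and DESeq2 called 0 members and 2 genes. Which members had an adjusted p-value from DESeq2 in that comparison is not given here. The heat shock genes had log2 fold changes between −0.46 ± 0.84 (Hspb1) and 0.52 ± 1.11 (Hspa1b). Whether the effect of CCl4 differed between the genotypes was tested as an interaction. It called 0 of 10 members and 0 of all genes (0%) with edgeR. At an unadjusted p under 0.05, 568 genes (3.16%) and none of the members passed. DESeq2 called 0 members and 2 genes for the interaction, but gave no adjusted p-value for Hspa1a or Dnajb1. The interaction was 2.71 ± 2.06 for Hspa1a and 2.19 ± 1.38 for Dnajb1 with all libraries, and −2.21 ± 1.08 and −0.70 ± 0.49 without WT mineral oil replicate 1 (adjusted p = 1 and 0.92 for both genes, with edgeR).

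**Figure D2:**
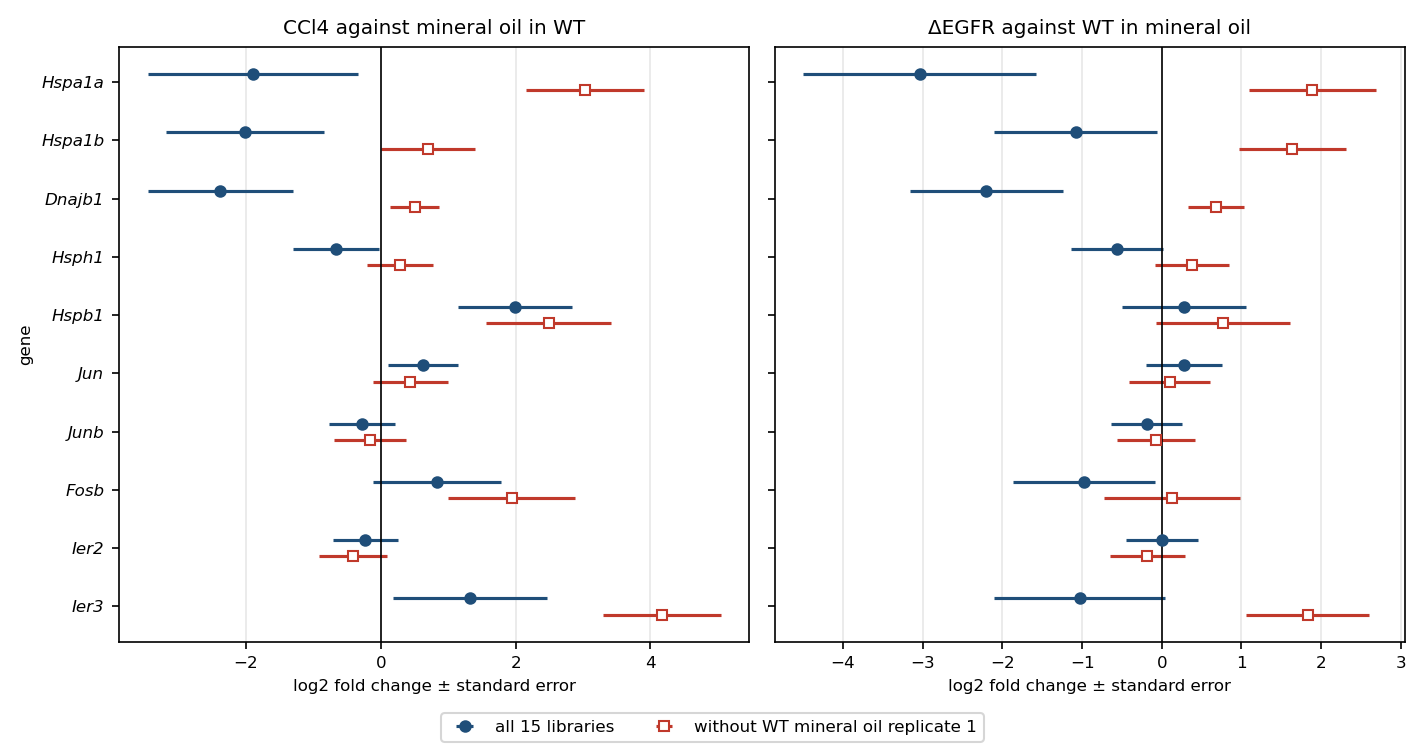
Log2 fold change ± standard error of each gene (rows) for CCl4 against mineral oil in WT (left) and ΔEGFR against WT in mineral oil (right), with all 15 libraries (filled circles) and without WT mineral oil replicate 1 (open squares). On the left, Hspa1a lies at −1.90 with that library and at 3.03 without it, whereas Junb lies at −0.28 and −0.16.

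Jun and Junb encode AP-1 subunits. Jun had 169, 187, 136 and 113 TPM in ΔEGFR CCl4, against 50.2, 192, 47.0 and 197 TPM in ΔEGFR mineral oil. In WT the levels were 331, 125 and 208 TPM with CCl4, against 64.3, 62.3, 138 and 151 TPM with mineral oil. WT CCl4 replicate 1 was the highest of all, and both mineral oil groups fell into 2 low and 2 high libraries. Junb had 196, 207, 162 and 124 TPM in ΔEGFR CCl4, against 81.9, 264, 59.2 and 249.3 TPM in ΔEGFR mineral oil. Among WT libraries there were 294, 147 and 229 TPM with CCl4, against 250.03, 78.6, 223 and 231 TPM with mineral oil. The groups overlapped for Jun and for Junb in every comparison, and ΔEGFR mineral oil replicate 3 was the lowest library for both. Ier2, whose protein is a nuclear immediate-early factor, followed the same libraries. Ier2 had 157, 127, 106 and 104 TPM in ΔEGFR CCl4, against 74.1, 198, 43.2 and 192 TPM in ΔEGFR mineral oil. WT hepatocytes had 226, 113 and 132 TPM with CCl4, against 81.8, 97.2, 184 and 165 TPM with mineral oil. Ier2 was lowest in ΔEGFR mineral oil replicate 3 and highest in WT CCl4 replicate 1, the same libraries as for Jun. WT mineral oil replicate 1, the library with the highest levels of Hspa1a, Hspa1b, Dnajb1 and Hsph1, was the lowest of its group for Ier2.

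Fosb encodes a FOS-family partner of JUN proteins in AP-1. Fosb had 3.38, 6.32, 3.09 and 4.04 TPM in ΔEGFR CCl4, against 0.90, 3.35, 0.35 and 8.43 TPM in ΔEGFR mineral oil. The WT values were 34.5, 7.68 and 9.18 TPM with CCl4, against 26.0, 3.06, 2.69 and 3.53 TPM with mineral oil. Its 2 highest libraries were WT CCl4 replicate 1 and WT mineral oil replicate 1. Every ΔEGFR CCl4 library lay below every WT CCl4 library, the only case among the 10 genes in which the 2 genotypes did not overlap within a treatment, in TPM or in CPM. Of all genes tested, 5.06% did not overlap in that comparison, and 2.38% were apart in this direction.

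Ier3 encodes a stress-responsive protein linked to cell survival. Ier3 had 14.9, 19.5, 6.18 and 3.16 TPM in ΔEGFR CCl4, against 1.3, 3.73, 3.91 and 0.45 TPM in ΔEGFR mineral oil. In WT mice it had 24.0, 7.68 and 16.4 TPM with CCl4, against 17.0, 0.43, 0.22 and 1.29 TPM with mineral oil. All 7 CCl4 libraries lay above 3 of the 4 WT mineral oil libraries, whereas WT mineral oil replicate 1 lay within the CCl4 range. The 3 libraries with under 0.5 TPM of Ier3 (WT mineral oil replicates 2 and 3 and ΔEGFR mineral oil replicate 4) were also the 3 with the lowest mean level of the other-cell markers, −0.25 to 0.27 on the log2 CPM scale, against 2.09 to 4.41 in the other 12. A fit with the mean of these markers as a covariate is given below.

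With CCl4 in WT, Ier3 had a log2 fold change of 1.32 ± 1.14 (adjusted p = 0.476 with edgeR) with all libraries. Without WT mineral oil replicate 1 it was 4.17 ± 0.87 (adjusted p = 0.00739 with edgeR), an 18-fold higher level with CCl4, and Ier3 passed the test. So did 28.7% of all genes in that fit. Fosb had 0.83 ± 0.95 with all libraries and 1.94 ± 0.94 without replicate 1 (adjusted p = 0.598 and 0.132 with edgeR). Jun had 0.62 ± 0.52 and 0.44 ± 0.55, and Junb and Ier2 lay between −0.41 and −0.16 with and without that library. In ΔEGFR mice Ier3 had 1.70 ± 1.09 (adjusted p = 0.349 with edgeR), and 1.62 without ΔEGFR mineral oil replicate 1. With the other-cell markers as a covariate and all libraries, Ier3 had −0.07 (adjusted p = 0.982) in ΔEGFR and 1.09 ± 0.68 (adjusted p = 0.364) in WT, both with edgeR. The WT value stands against 1.32 with all libraries and no covariate. The covariate was not fitted without WT mineral oil replicate 1. Jun, Junb, Fosb and Ier2 had log2 fold changes of −0.24 to −0.61 with CCl4 in ΔEGFR mice. By mean TPM, Jun, Junb and Fosb were higher with CCl4 there (151, 172 and 4.21 TPM, against 122, 164 and 3.26 TPM). Ier2 was lower (123 against 127 TPM), so only its direction was the same on both scales.

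Between genotypes, Fosb had a log2 fold change of −2.07 ± 0.96 under CCl4 (unadjusted p = 0.0507, adjusted p = 1 with edgeR), a 4.20-fold lower level in ΔEGFR that did not pass the test, and −0.95 without WT CCl4 replicate 1. All 5 immediate-early genes had negative values there, with a median of −0.59, against −0.01 over all genes. Their summed level was 909, 400.1 and 593.9 TPM in WT CCl4, highest in replicate 1, against 347.9 to 546.9 TPM in ΔEGFR CCl4. In mineral oil the median of the 5 genes was −0.19, and 0.10 without WT mineral oil replicate 1. Ier3 had −1.03 ± 1.07 in mineral oil with all libraries and 1.83 ± 0.77 without WT mineral oil replicate 1 (adjusted p = 0.798 and 0.822 with edgeR). Its interaction of genotype and treatment was 0.38 ± 1.56 with all libraries and −2.47 ± 1.03 without that library (adjusted p = 1 and 0.92 with edgeR).

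The 2 sets of genes did not rank the libraries alike. The summed TPM of the 5 heat shock genes was highest in WT mineral oil replicate 1, at 1244 TPM, and ran from 79.6 to 838.5 TPM in the other 14. The summed TPM of the 5 immediate-early genes was highest in WT CCl4 replicate 1, at 909 TPM, and lowest in ΔEGFR mineral oil replicate 3, at 154 TPM. By heat shock sum WT mineral oil replicate 1 ranked 1st of 15 and it ranked 9th by immediate-early sum. Jun, Junb and Ier2 make up most of the immediate-early sum. For Fosb, at 26.0 TPM, only WT CCl4 replicate 1 was higher than this library, and its Ier3, at 17.0 TPM, lay within the CCl4 range. The mean log2 CPM of the 38 other immediate-early genes described below was highest in this library, at 6.10, against 3.01 to 5.40 in the others. ΔEGFR mineral oil replicate 3 ranked 5th by heat shock sum and 15th by immediate-early sum, while ΔEGFR mineral oil replicate 2 ranked 11th and 2nd. By these sums, a library high for one set was therefore not in general high for the other.

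**Figure D3:**
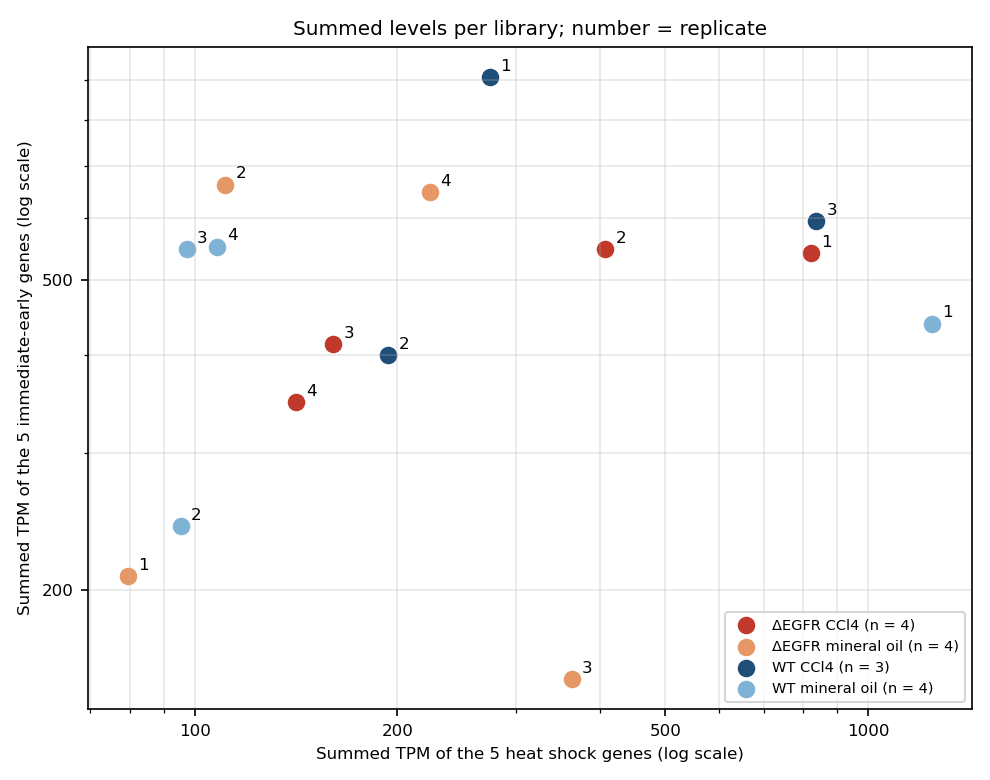
Summed TPM of the 5 immediate-early genes against the summed TPM of the 5 heat shock genes (both log scales) in the 15 libraries, coloured by group and numbered by replicate. WT mineral oil replicate 1 lies at the right, at 1244 and 439 TPM, and ΔEGFR mineral oil replicate 3 lies at the bottom, at 363 and 154 TPM.

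Within groups, 8 of the 45 pairs of members were correlated past the threshold, 6 of them among 4 heat shock genes. Correlations were computed over the 15 libraries on log2 CPM (TMM-scaled) after the mean of each group was removed, with two-sided permutation p-values from 100000 permutations within groups, adjusted over the 45 pairs. Hspa1a, Hspa1b, Dnajb1 and Hsph1 formed 6 pairs with Pearson's r of 0.84 to 0.96, and all 6 passed, with adjusted p-values of 0.00652 to 0.039. The closest pair was Hspa1a and Hspa1b (r = 0.96, Spearman's rho = 0.92, permutation p = 0.00026 and 0.00045), whose shared sequence bears on this value. Hspa1b and Hsph1, which share no such sequence problem, had r = 0.92 and rho = 0.90 (permutation p = 0.00157 and 0.00195), and r = 0.86 without the 2 libraries farthest from the median. The 6 pairs had r of 0.69 to 0.91 without WT mineral oil replicate 1. Hspb1 had r of 0.38 to 0.51 with the other 4 heat shock genes, and none of these 4 pairs passed.

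Jun and Ier2 had r = 0.94 and rho = 0.93 (permutation p = 0.0006 and 0.00069, adjusted p = 0.00866 for r), and r = 0.90 without the 2 libraries farthest from the median. Jun and Junb had r = 0.86 and rho = 0.79 (permutation p = 0.00742 and 0.0294, adjusted p = 0.0417 for r), and r = 0.71 without the 2 farthest libraries. Without WT mineral oil replicate 1, the 6 pairs among Jun, Junb, Fosb and Ier2 had r of 0.82 to 0.98, against 0.60 to 0.94 with it. The other 4 of these 6 pairs, every pair with Fosb among them, did not pass with all libraries (adjusted p = 0.0595 to 0.307), and Fosb and Ier2 had r = 0.04 without the 2 farthest libraries. Ier3 had lower values, with r of −0.38 to 0.21 with the other 4 genes. Of the 25 pairs between a heat shock gene and an immediate-early gene, 0 passed (0 at an adjusted p under 0.05), with a median r of 0.02 and a range of −0.40 to 0.73. The highest, Hspa1a and Ier3 at r = 0.73, had r = 0.18 without WT mineral oil replicate 1. All pairs share their libraries and their depth, so these values describe 15 preparations and not 15 measurements per gene.

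**Figure D4:**
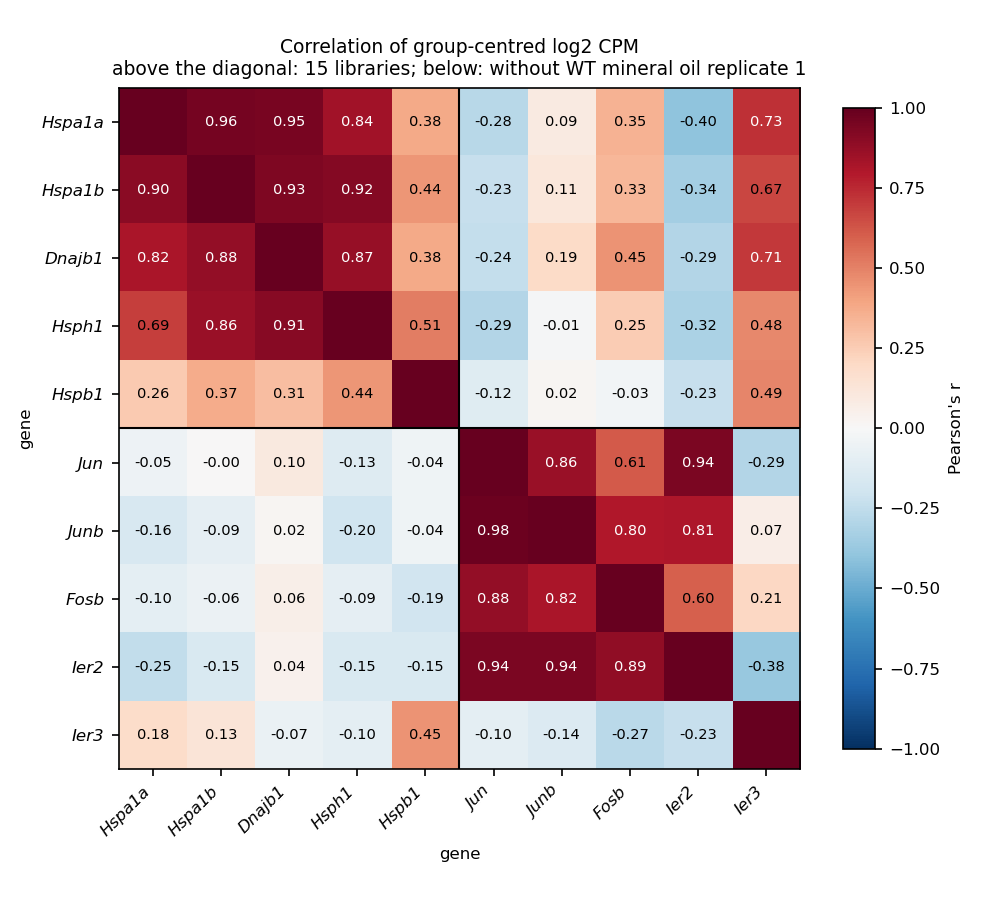
Pearson's r of group-centred log2 CPM for each pair of the 10 genes (rows and columns, heat shock genes first), over 15 libraries above the diagonal and without WT mineral oil replicate 1 below it. The pairs of Hspa1a, Hspa1b, Dnajb1 and Hsph1 run from 0.84 to 0.96 above the diagonal, and those of Jun, Junb, Fosb and Ier2 from 0.60 to 0.94 above it and 0.82 to 0.98 below it.

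Other genes with the most similar pattern were taken from 9642 genes whose log2 CPM averaged 2 or more, by Pearson's r of group-centred log2 CPM over the same 15 libraries, as a description. For the mean of the 5 heat shock genes they were B4galt3 (r = 0.955), Bag3 (0.929), Adpgk (0.926), P4ha1 (0.916), Sox9 (0.906), Dnajb4 (0.905), Brd2 (0.904) and Hsp90aa1 (0.904). Bag3, a co-chaperone of HSP70, Dnajb4, an HSP40, and Hsp90aa1, the inducible cytosolic HSP90, are textbook heat shock genes, and Sox9 is a bile duct transcription factor. Without WT mineral oil replicate 1 these 8 values were 0.684 to 0.857. For the mean of the 5 immediate-early genes they were Fos (r = 0.921), Dusp1 (0.921), Btg2 (0.913), Cxcl1 (0.911), Zfp36 (0.906), Maff (0.905), Egr1 (0.899) and Bhlhe40 (0.898), and 0.889 to 0.942 without that library. Fos, Dusp1, Btg2, Zfp36 and Egr1 are themselves immediate-early genes, and Cxcl1 is a neutrophil chemokine.

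Single members had nearest genes of their own. Chordc1 and Cacybp, an HSP90 co-chaperone and a calcyclin-binding protein, were nearest to Hsph1 (r = 0.965 and 0.954, and 0.963 and 0.919 without WT mineral oil replicate 1). Bag3 was nearest to Hspa1b (r = 0.958), Arid4a to Hspa1a (0.952) and Brd2 to Dnajb1 (0.965, and 0.693 without that library). Hspb1 was nearest to Snhg1 and Snhg12 (r = 0.898 and 0.892), which are small nucleolar RNA host genes and not chaperones. Egr1 was nearest to Junb (0.948), Fos to Fosb (0.937), Myo6 to Ier2 (0.911), Tom1l2 to Jun (0.878) and Klf4 to Ier3 (0.968).

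The spread within groups set what could be tested. The within-group SD on the log2 CPM scale was 2.13 for Hspa1a, 1.65 for Ier3, 1.51 for Hspa1b, 1.41 for Fosb, 1.33 for Dnajb1 and 1.3 for Hspb1. It was 0.87 for Hsph1, 0.76 for Jun, 0.74 for Junb and 0.73 for Ier2. The median over all genes tested was 0.45, and 98.3% of them varied less than Hspa1a. Without WT mineral oil replicate 1 the SD of Dnajb1 was 0.50, against an all-gene median of 0.41 in the same libraries. Those of Hspb1 and Fosb were 1.31 each. Over the 4010 genes whose log2 CPM averaged 5 or more, Dnajb1 among them, the median SD was lower, 0.24 without that library and 0.28 with it. By median TPM over the 15 libraries, which is scaled for length, the order was Junb (207), Jun (138), Ier2 (127), Hspb1 (90.5), Hsph1 (51.9), Hspa1b (42.6), Dnajb1 (22.5), Hspa1a (4.49), Ier3 (3.91) and Fosb (3.53), and the ranges of neighbours in this order overlapped.

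Wider sets of related genes, listed from textbook knowledge, gave few calls. Of 32 genes listed as other cytosolic and mitochondrial chaperones, 0 rose and 1 fell with CCl4 in WT, where 5.31% and 7.2% of all genes did. Their median log2 fold change was −0.08, against −0.03 over all genes. The one that fell was Hspb8, a small heat shock protein of autophagy, at 141 ± 25.7 TPM in WT CCl4 and 195 ± 60.0 TPM in WT mineral oil (SD, n = 3 and 4; log2 fold change −0.98 ± 0.28, adjusted p = 0.0379 with edgeR). Dnaja4 had −1.16 ± 0.42 and the mitochondrial chaperonin Hspd1 −0.53 ± 0.20 (adjusted p = 0.0851 and 0.1 with edgeR). In the fit that leaves out WT mineral oil replicate 1, 2 of the 32 rose and 2 fell, with adjusted p-values of 0.0153 to 0.0449 from edgeR. The list median was 0.05, and 28.7% of all genes were called in that fit. Serpinh1, a collagen chaperone of the endoplasmic reticulum kept in this list (3.34 ± 0.85), and the HSP70 relative Hspa1l (2.93 ± 0.89) rose. Hspb8 (−0.78 ± 0.27) and Hspb6 (−0.75 ± 0.23) fell, and Dnaja4 and Hspd1 had −0.55 ± 0.27 and −0.53 ± 0.21. In that fit 5 of 13 stellate cell markers also rose, and their part in the Serpinh1 value was not tested. In ΔEGFR mice 0 of the 32 were called with edgeR and with DESeq2 (3 at an unadjusted p under 0.05 with edgeR, where 24.7% of all genes passed). There Hspb8 had −0.66 ± 0.25 (adjusted p = 0.138).

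Of 38 other immediate-early genes, 1 rose and 0 fell with CCl4 in WT, where 5.31% and 7.2% of all genes did. The gene that rose was Sgk1, a serum- and glucocorticoid-regulated kinase, at 126 ± 74.6 TPM in WT CCl4 and 15.4 ± 17.2 TPM in WT mineral oil (SD, n = 3 and 4; log2 fold change 2.55 ± 0.71, adjusted p = 0.0342 with edgeR). In ΔEGFR mice Sgk1 had 2.36 ± 0.68 and Ccn2, a matricellular growth factor, 2.80 ± 0.81 (adjusted p = 0.0658 and 0.0672 with edgeR), and 0 of the 38 were called (4 at an unadjusted p under 0.05, and 3 by DESeq2). There edgeR called 4.15% of all genes, 24.7% had an unadjusted p under 0.05, and DESeq2 called 2410 genes. Without WT mineral oil replicate 1, 14 of the 38 rose with CCl4 in WT and 0 fell, where 14.5% of all genes rose. In the same fit 7 of 8 neutrophil markers (median 4.24), 9 of 16 macrophage markers (median 2.95) and 5 of 13 stellate cell markers (median 2.09) rose and 4 of 10 hepatocyte markers fell (median −1.12), and the part of these cells in the count of 14 was not tested. The 14 included Sgk1 (3.70 ± 0.58), Egr2 (3.86 ± 0.69), Klf4 (4.07 ± 0.78) and Atf3 (3.55 ± 0.69), with adjusted p-values of 0.00336 to 0.00577 from edgeR, named here after their values were seen. Under CCl4 all 38 had negative values in ΔEGFR against WT, where 49.1% of all genes were positive. Their median was −0.47, against −0.01 over all genes. With edgeR or DESeq2 0 were called, and 1 had an unadjusted p under 0.05 with edgeR, as did 2.29% of all genes. Fos was the one, at 73.1 ± 19.9 TPM in ΔEGFR CCl4 and 226 ± 198 TPM in WT CCl4 (SD, n = 4 and 3; log2 fold change −1.69 ± 0.75, adjusted p = 1), and WT CCl4 replicate 1 alone had 450 TPM. The mean log2 CPM of the 38 was 5.40, 4.49 and 4.95 in WT CCl4, against 4.09 to 4.76 in ΔEGFR CCl4. WT CCl4 replicate 2 thus lay within the ΔEGFR range. How far the 38 negative signs rest on WT CCl4 replicate 1 was not tested.

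Of 14 chaperones of the endoplasmic reticulum, which answer the unfolded protein response and not HSF1, 0 were called in any of the 5 comparisons with edgeR or with DESeq2. For CCl4 in WT 2 had an unadjusted p under 0.05 with edgeR, as did 28.9% of all genes. All 14 had positive values with CCl4 in WT, where 48.1% of all genes did (median 0.56, against −0.03 over all genes). In ΔEGFR 2 of 14 did, where 48.7% of all genes did (median −0.15). The mean log2 CPM of the 14 was 9.12, 8.08 and 8.07 in WT CCl4, against 7.14 to 8.15 in WT mineral oil. It was 7.51 to 8.62 in ΔEGFR CCl4, against 8.19, 7.55, 8.80 and 8.19 in ΔEGFR mineral oil. How far these signs rest on WT CCl4 replicate 1 or ΔEGFR mineral oil replicate 3 was not tested. Hspa5, which encodes BiP, had 0.91 ± 0.41 and Creld2 1.51 ± 0.70 in WT (adjusted p = 0.159 and 0.174 with edgeR). Of the 14, 13 were positive in WT without mineral oil replicate 1 (median 0.47) and 0 were called, and Hspa5 had 0.88 ± 0.46 and Creld2 1.32 ± 0.77 (adjusted p = 0.16 and 0.206). With limma on log2(TPM + 1), 9 of the 14 were called for CCl4 in WT, where 3222 of the 17975 genes tested were. With no scaling factor, 6 of the 14 and 2841 of all genes were called, and the median of all genes moved to 0.40.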

How the data were processed

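Libraries of the 15 hepatocyte samples were stranded and made from mRNA, per the labels' protocols. The submitters' processing notes name STAR 2.7.8a, RSEM 1.3.0 and the build GRCm39. Which annotation release was used, and whether counting used strand, is not given in the sources used here. The authors' deposited files hold RSEM expected counts and TPM for each Ensembl gene. Symbols were joined by identifier (52029 of 56953, 91.4%) from a table of a different build, and promoters came from a RefSeq table of GRCm38.p6.

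Rounded expected counts were fitted in edgeR 4.0.16 (R 4.3.3; robust quasi-likelihood, TMM, filterByExpr with minimum count 10 and minimum total 15), with 1 mean per group over all 15 libraries. A gene was called at a Benjamini-Hochberg adjusted p under 0.05 over 17975 genes. The fit was tested on simulated data. Log2 CPM used a prior count of 2. Alternatives were DESeq2 1.42.0, limma 3.58.1 on log2(TPM + 1) and log2(TPM + 0.1), other scalings and filters, a fit of only the groups compared, Hspa1a and Hspa1b summed, covariates for depth class and for markers of other cells, only libraries over 80 M, and leaving out each library. A fit of only libraries under 80 M was added after seeing the data.

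The members and lists were chosen with earlier results of these data known. All 10 members were tested in every comparison, and in some comparisons the values of only some members are given. Up to 4 genes of lowest adjusted p per wider list and the genes nearest in pattern (8 per set, 2 per member) were also taken. Nothing in the labels names an animal, a batch or a replicate, so libraries were numbered by order of deposit within each group, and p-values measure only the spread between these libraries, which may be technical. Reads carry no molecular identifiers, so counts are reads, not molecules.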

Additional observations from a re-analysis of the deposited data

Results flagged for a closer look

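In groups of 4 libraries, the gap between the extreme library and its nearest neighbour was divided by the whole range of the group and set against Dixon's critical value for 4 values. Of the 30 sets of 4 TPM values (10 genes in 3 groups), 7 exceeded it. The group of 3 was not examined. A rate of about 1 in 20 sets flagged by chance holds for normally distributed values, and TPM was not log-transformed here. The count of 7 is therefore not set against that rate. Whether the same sets exceed the critical value on a log scale was not tested. WT mineral oil replicate 1 was the extreme library, on the high side, in 6 of the 7. Its gap made up 0.991 of the range for Dnajb1, 0.990 for Hspa1a, 0.965 for Hspa1b and 0.919 for Hsph1 among the heat shock genes. Among the immediate-early genes it made up 0.964 for Fosb and 0.936 for Ier3. The same library had 64.3 TPM of Jun and 81.8 TPM of Ier2, both within the range of the other mineral oil libraries of the 2 genotypes. The seventh was Junb in WT mineral oil replicate 2, which lay below the rest of its group with a gap of 0.841 of the range, at 78.6 TPM, against 223 to 250.03 TPM in the other 3. The sets share libraries and are not independent of each other.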

How the results depend on the processing

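No paired analysis was possible because the labels number no replicates and tie no libraries across groups. The count of members called was 0 in each of the 5 comparisons and stayed 0 under every alternative with these exceptions: 2 were called for CCl4 in WT without WT mineral oil replicate 1 (range 0 to 2 over libraries left out), and 2 for ΔEGFR against WT in mineral oil with only libraries over 80 M. In the fit without WT mineral oil replicate 1, 5111 of 17798 genes (28.7%) were called for CCl4 in WT. DESeq2 gave no adjusted p-value for Hspa1a or Dnajb1 for CCl4 in WT, for genotype in mineral oil or for the interaction. It gave none for Hspa1a for CCl4 in ΔEGFR either. Whether other members lacked one there, or any did for genotype under CCl4, is not given here. Of the 50 member values, 15 changed sign in each limma fit and 11 with the other-cell covariate. With no scaling factor 8 did, with only libraries over 80 M 8, and with depth class 7. Some of the values that changed sign were as follows, and the cause was not tested. With limma on log2(TPM + 1), CCl4 in WT gave 1.03 for Hspa1a, 0.02 for Hspa1b and 0.23 for Hsph1, CCl4 in ΔEGFR gave 0.31 for Hspa1b, and Ier3 had 0.03 for ΔEGFR against WT in mineral oil and −0.68 for the interaction. With log2(TPM + 0.1) these 6 values were 1.58, 0.04, 0.24, 0.32, 0.39 and −1.12. With depth class as a covariate, Hspa1a had 0.57 for CCl4 in WT, Hspa1b 0.10 for CCl4 in ΔEGFR and Ier3 −0.32 for the interaction. With only libraries over 80 M, where CCl4 in WT sets 1 library (replicate 3) against 1 (mineral oil replicate 1), Fosb had −1.60 and Ier3 −0.63. With only libraries under 80 M, Hspa1a had 2.65, Hspa1b 0.70, Dnajb1 0.38 and Hsph1 0.18 for CCl4 in WT. With the other-cell covariate, CCl4 in ΔEGFR gave −1.93 for Hspa1a and −0.07 for Ier3, ΔEGFR against WT in mineral oil gave 0.27 for Hspa1a and 0.48 for Ier3, and the interaction gave −0.49 for Hspa1a and −1.16 for Ier3. With no scaling factor, Hspa1b had 0.04 for CCl4 in ΔEGFR, and the median of all genes moved to 0.40 in WT and 0.44 in ΔEGFR. With Hspa1a and Hspa1b summed, the sum had −0.31 for CCl4 in ΔEGFR. With libraries left out in turn, CCl4 in WT ran from −2.31 to 3.03 for Hspa1a, −2.40 to 0.70 for Hspa1b, −2.76 to 0.50 for Dnajb1, −0.93 to 0.28 for Hsph1 and −0.24 to 1.94 for Fosb. For ΔEGFR against WT in mineral oil the ranges were −3.76 to 1.89 for Hspa1a, −2.57 to 0.68 for Dnajb1 and −1.44 to 1.83 for Ier3. For the interaction they were −2.21 to 3.44, −0.70 to 2.54 and −2.47 to 0.93 for the same genes, and for Hspb1 and Hspa1b with CCl4 in ΔEGFR 0.27 to 1.70 and −0.87 to 0.07. Over all 10 genes and 5 comparisons, 116 of 1110 alternative values changed sign, and 115 of the 116 were not called. Genes called for CCl4 in WT numbered 2250, against 3622 with DESeq2, 3222 and 3193 with limma, 1457 without a filter, 533 with only the groups compared, 910 with the other-cell covariate, 0 under 80 M (2 libraries against 3), 0 over 80 M (1 against 1, each assumed to vary like the other groups) and 575 to 5111 with a library left out. For CCl4 in ΔEGFR they numbered 746, against 2410, 2271 and 2285, 470, 1286, 96 (both with the covariate and over 80 M), 1180 with no scaling factor, 1643 with depth class and 75 to 972. The lowest member level, 0.22 TPM for Ier3 in WT mineral oil replicate 3, stood on 9 expected counts, so low values of Ier3 are imprecise, and depth class was uneven over the groups.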

Other observations

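Myc and Fosl2, growth-related immediate-early genes outside the 10, were among the genes with the lowest adjusted p-values of the wider immediate-early list for ΔEGFR against WT in mineral oil, with log2 fold changes of −2.53 ± 0.77 and −1.96 ± 0.79 (adjusted p = 0.713 for each with edgeR), and −1.21 ± 0.56 and 0.23 ± 0.24 without WT mineral oil replicate 1 (adjusted p = 0.822 and 0.859). In ΔEGFR mineral oil the ranges were 2.74 to 11.6 TPM for Myc and 3.11 to 7.51 TPM for Fosl2. Among WT mineral oil libraries, replicate 1 had 116 TPM of Myc and 50.2 TPM of Fosl2, against 8.28 to 23.0 TPM and 2.93 to 6.96 TPM in the other 3. Socs3, an inhibitor of cytokine signalling, had 4.60 to 49.6 TPM in the 7 CCl4 libraries, against 20.5 to 42.2 TPM in 7 of the mineral oil libraries and 219 TPM in the eighth, WT mineral oil replicate 1.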
